A study of Rattus norvegicus with 6 samples.

Results

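The REEP and atlastin genes, 9 genes whose proteins shape the endoplasmic reticulum (ER), were examined in RNA-Seq values of 6 Sprague-Dawley rat testes, 3 diabetic (DM) and 3 non-diabetic (ND). The members were the rows of the deposited table with the symbol Reep1, Reep2, Reep3, Reep4, Reep5, Reep6, Atl1, Atl2 or Atl3, 1 row for each gene, out of 35291 genes and assembled loci. The family was chosen by the FPKM of Reep5, known to be lower in the DM testes, so the values of Reep5 are described here without a test, and the question was whether the other 8 genes followed it. The DM rats had been fed a high-fat diet and injected once with streptozotocin, a toxin of pancreatic beta cells, and their testes were taken 8 weeks later, and the ND rats had received citrate buffer. The methods do not state the diet of the ND rats. Rats were counted as diabetic by their blood glucose, and no measurement of insulin is described. Any part of insulin therefore cannot be told apart from that of glucose. Values are FPKM, in which the fragments of a gene are divided by its transcript length and by library size, and they can therefore be compared between genes.

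The ER is a continuous membrane network of flat sheets and narrow tubules. REEP proteins insert hairpins into the outer leaflet of the membrane and thereby help to curve it, while atlastins are membrane-bound GTPases that fuse tubules into junctions. In the REEP family, Reep1 to Reep4 form one branch, whose proteins also contact microtubules, and Reep5 and Reep6 form the other. The name, receptor expression-enhancing protein, comes from assays in which some members helped receptors reach the cell surface. Inherited faults of human REEP1, REEP2 and ATL1 cause hereditary spastic paraplegia, a disease of long axons, and faults of REEP6 cause a retinal degeneration. The smooth ER is abundant in Leydig cells, the testosterone-producing cells between the tubules of the testis, because enzymes of steroid synthesis reside in it.

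The tissue label was checked against marker genes. The summed level of 5 spermatid markers (Acrv1, Prm1, Prm2, Tnp1 and Tnp2) ran from 7370 to 10051 FPKM over the 6 rats. The neuron markers Rbfox3 and Snap25 did not exceed 0.156 FPKM in any rat, although Tubb3 and Syt1 of the same list were detected. Low values that stand for a few fragments gave relative depths of 0.893 to 1.09 over the 6 libraries, so that depth differed little between them, while the number of reads stays unknown. The DM and ND rats were set against each other in limma, on log2(FPKM + 0.1), with every gene that averaged 0.5 FPKM or more (20338 genes), and all 9 members passed that filter. The labels do not say more of the animals than their group and number, so the p-values measure the spread between these 6 samples. For groups of 3, the smallest p-value of an exact permutation test is 0.1.

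The 9 genes spanned more than 2 orders of magnitude in the testis, and 1 gene led each family. Reep6 was the most abundant member, with 363, 361 and 342 FPKM in DM replicates 1, 2 and 3 and 344, 349 and 327 FPKM in ND replicates 1, 2 and 3. It stood at the 99.4th percentile of mean level among the genes tested and made up 83.1% to 84.2% of the summed REEP FPKM in the DM rats and 83.0% to 83.3% in the ND rats. Atl3, the broadly expressed atlastin, followed with a mean of 221 FPKM over the 6 rats, and it made up 87.9% to 90.0% of the summed atlastin FPKM. The next genes in order were Reep2 at 27.7 FPKM, Reep1 at 26.1 FPKM, Atl1 at 18.2 FPKM, Reep4 at 11.8 FPKM and Atl2 at 9.39 FPKM. Reep5, the close relative of Reep6, was only at 2.53 FPKM and Reep3 at 1.30 FPKM, which placed them at the 34.9th and 18.7th percentiles of the genes tested. Reep2 and Reep1 did not differ beyond their spread, since Reep2 was the higher in 4 of 6 rats and their ranges overlapped. The ranges of Reep5 and Reep3 also overlapped over the 6 rats, but Reep5 was the higher in 6 of 6. Every other neighbouring pair in this order had separate ranges.

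**Figure D1:**
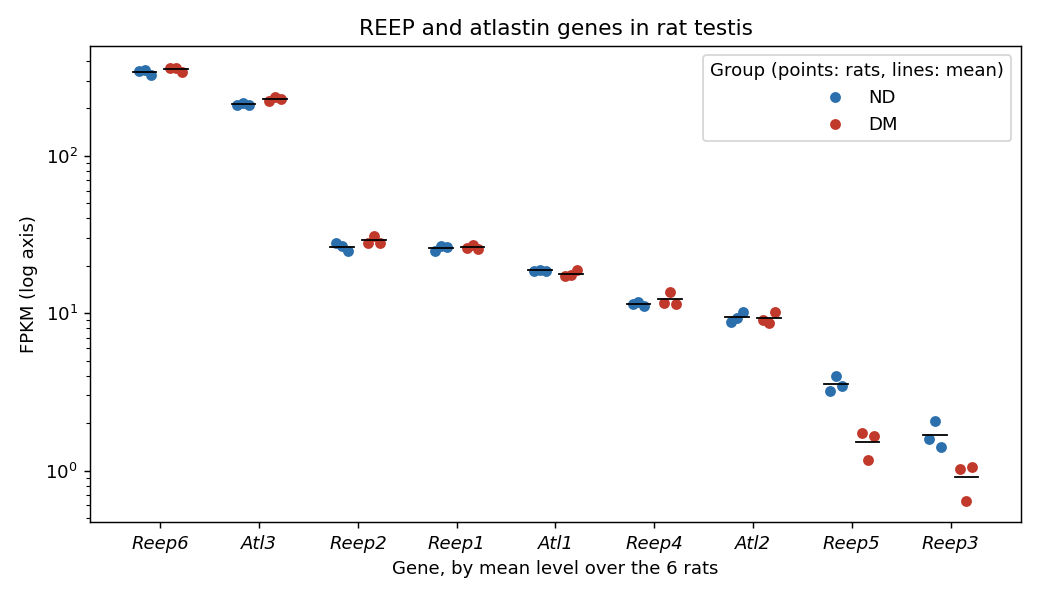
FPKM of the 9 genes in each rat on a log axis, with 1 point a rat, a line at each group mean (n = 3), ND in blue and DM in red. Reep6 and Atl3 lie above 200 FPKM in every rat, and the DM and ND points are apart for Reep5 and Reep3 at the low end and, by a small step, for Atl3.

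Reep5 was the member by which the family was chosen. Listed as ENSRNOG00000020167, it was at 1.73, 1.16 and 1.65 FPKM in DM replicates 1, 2 and 3 and at 3.21, 3.98 and 3.46 FPKM in ND replicates 1, 2 and 3. Each DM rat was thus lower than each ND rat, the lowest being DM replicate 2 and the highest ND replicate 2. The means were 1.51 ± 0.308 FPKM in DM and 3.55 ± 0.394 FPKM in ND (SD, n = 3 each), 2.35-fold higher in ND, giving a log2 fold change of -1.19 (SE 0.19).

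Reep3 was the single other member with a difference of similar size. REEP3, together with REEP4, is known to clear ER membrane from chromosomes during cell division. Reep3, listed as ENSRNOG00000000645, was at 1.03, 0.644 and 1.06 FPKM in DM replicates 1, 2 and 3 and at 1.58, 2.07 and 1.42 FPKM in ND replicates 1, 2 and 3. The groups did not overlap, and the lowest and the highest rat were again DM replicate 2 and ND replicate 2. Its mean was 0.910 ± 0.231 FPKM in DM and 1.69 ± 0.342 FPKM in ND (SD, n = 3 each), 1.86-fold higher in ND. The log2 fold change of Reep3 was -0.84 (SE 0.26, 95% interval -1.44 to -0.23, which like the other intervals is not widened for the number of genes). Its unadjusted p-value from limma was 0.0136, the Benjamini-Hochberg adjusted p-value over all genes tested was 0.539, and the exact permutation test gave p = 0.1. Reep3 therefore did not pass the adjusted test, and few fragments limit precision at its level. Its log2 fold change was -0.49 with a pseudocount of 1. Leaving out single rats gave values from -0.95 to -0.63, and the unadjusted p-value from limma rose to 0.0539 without ND replicate 2. In RefSeq (assembly GRCr8) the span of Reep3 overlaps that of Jmjd1c, a histone demethylase family gene, which was at 14.7 to 16.1 FPKM in DM and 15.0 to 16.3 FPKM in ND, with overlapping groups. The span of Reep5 overlaps that of the pseudogene Srp19-ps2, and those of Reep1 and Atl3 overlap long noncoding RNA genes. No value was listed under the symbols of these loci.

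The remaining REEP genes did not follow Reep5. Reep6, which shares its branch, was at 355 ± 11.6 FPKM in DM and 340 ± 11.8 FPKM in ND (SD, n = 3 each). Its log2 fold change of 0.063 had a 95% interval of -0.064 to 0.19 (adjusted p = 0.869 from limma). Reep1, the gene of the neuronal REEP, was at 25.8, 27.3 and 25.7 FPKM in DM and 24.9, 26.8 and 26.2 FPKM in ND replicates 1, 2 and 3. These ranges overlapped, and the log2 fold change was 0.017 (95% interval -0.13 to 0.16, adjusted p = 0.976 from limma). Reep2, also best known from neurons, was at 28.1, 30.9 and 27.8 FPKM in DM and 28.0, 26.5 and 24.9 FPKM in ND. Of its DM rats only replicate 3 lay within the range of ND, and the log2 fold change was 0.13 (95% interval -0.047 to 0.30, adjusted p = 0.788 from limma). Reep4, the mitotic partner of Reep3, was at 11.7, 13.6 and 11.4 FPKM in DM and 11.4, 11.7 and 11.1 FPKM in ND. The groups overlapped, and DM replicate 2, in which Reep3 and Reep5 were lowest, held the highest Reep4 value. The log2 fold change of Reep4 was 0.098 (95% interval -0.11 to 0.31, adjusted p = 0.885 from limma).

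The atlastins changed little as well. Atl3 was at 222, 235 and 230 FPKM in DM replicates 1, 2 and 3 and at 211, 217 and 209 FPKM in ND replicates 1, 2 and 3. All DM rats were above all ND rats, by a narrow margin. Its mean was 229 ± 6.11 FPKM in DM and 212 ± 3.88 FPKM in ND (SD, n = 3 each), 7.79% higher in DM, which is a log2 fold change of 0.11 (95% interval -0.0080 to 0.22). The adjusted p-value of Atl3 from limma was 0.700, the unadjusted p-value 0.0636 and the exact permutation p = 0.1. Under median-ratio scaling of the samples, limma gave Atl3 an unadjusted p-value of 0.0220 and an adjusted p-value of 0.592. Atl1, the atlastin of neurons, was at 17.3, 17.4 and 18.7 FPKM in DM and 18.6, 18.7 and 18.6 FPKM in ND. DM replicate 3 lay within the ND range and the other DM rats below it, and the log2 fold change was -0.071 (95% interval -0.22 to 0.081, adjusted p = 0.882 from limma). Atl2 was at 9.08, 8.65 and 10.2 FPKM in DM and 8.80, 9.38 and 10.2 FPKM in ND, with overlapping groups. The log2 fold change of Atl2 was -0.023 (95% interval -0.26 to 0.21, adjusted p = 0.978 from limma), and its sign turned under median-ratio scaling, to 0.0064.

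**Figure D2:**
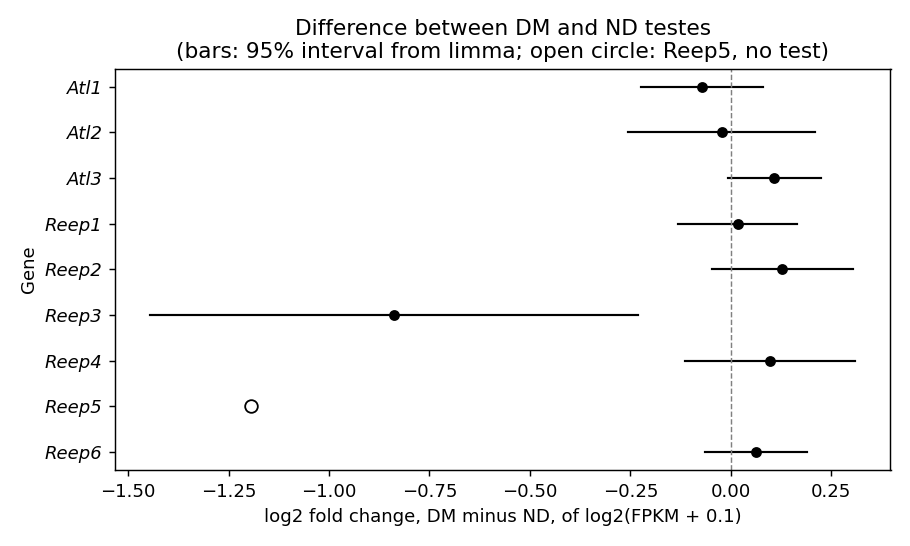
Log2 fold change of each gene, DM minus ND, on the log2(FPKM + 0.1) scale, with 95% intervals from limma for the 8 genes that were tested and an open circle for Reep5, which was not. The intervals of 7 genes lie between -0.26 and 0.31, and that of Reep3 runs from -1.44 to -0.23.

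The counts for the family are given beside the shares over all genes, and 8 genes are too few to set them apart from those shares. Of the 8 members other than Reep5, 0 met the study's criterion (a log2 fold change of 1 or more in size, unadjusted p below 0.05, here from limma), which 1.24% of the 20338 genes tested met. An unadjusted p-value below 0.05 was reached by 1 of the 8, Reep3, against 7.46% of all genes. Of the 8, 2 had groups without overlap, Reep3 and Atl3, in opposite directions, against 13.0% of all genes. An adjusted p-value below 0.05 from limma was reached by 0 of the 8, against 0.0344% of all genes. The log2 fold changes of the 7 members other than Reep3 and Reep5 ran from -0.071 to 0.13, with a median of 0.063, beside a median of -0.021 over all genes tested. Because Reep6 outweighs the rest, the summed FPKM of the REEP genes without Reep5 was 424 ± 13.8 in DM and 406 ± 13.5 in ND (SD, n = 3 each; exact permutation test, two-sided, p = 0.3). The summed FPKM of the atlastins was 256 ± 6.33 in DM and 241 ± 3.75 in ND (SD, n = 3 each), with separate groups (exact permutation test, two-sided, p = 0.1). Reep5 made up 0.267% to 0.403% of the summed REEP FPKM in DM and 0.777% to 0.948% in ND, and Reep3 0.148% to 0.258% in DM and 0.360% to 0.494% in ND.

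Markers of Leydig cells moved with Reep5 and Reep3. The 6 markers were Cyp17a1, Star, Cyp11a1 and Hsd17b3 of steroid synthesis, the luteinizing hormone receptor gene Lhcgr and the hormone gene Insl3. Their summed level was 27.3 to 57.3 FPKM in the DM rats and 84.5 to 117 FPKM in the ND rats. All 6 markers were lower in DM at an unadjusted p-value below 0.05 from limma, against 7.46% of all genes in either direction. The adjusted p-value from limma was below 0.05 for 1 of them, Cyp17a1, against 0.0344% of all genes. For Hsd17b3, DM replicate 3 at 1.96 FPKM stood above ND replicate 2 at 1.84 FPKM. Each of the other markers had separate ranges in DM and ND. No marker of this list was at 0 in any rat. The rat with the lowest sum was DM replicate 2 and the one with the highest ND replicate 2, as for Reep5 and Reep3. Among the remaining rats, the sum and Reep3 were higher in DM replicate 3 than 1 and in ND replicate 1 than 3. Reep5 had the reverse order in both groups. Of the single markers, Star and Cyp17a1 shared the extremes of the sum. Insl3 was lowest in DM replicate 1 and Lhcgr in DM replicate 3, while Cyp11a1 was highest in ND replicate 1 and Hsd17b3 in ND replicate 3. Reep5 amounted to 2.88% to 4.25% of the Leydig marker sum in DM and 3.08% to 4.09% in ND, with overlapping groups. Reep5 was chosen by its difference and the sum varied widely within DM, so no conclusion is drawn from this ratio. Reep3 amounted to 1.85% to 2.49% of the same sum in DM and 1.52% to 1.77% in ND, without overlap. Because the sum weighs the abundant markers most, no conclusion is drawn from this ratio either. The part of the Leydig cell markers in the difference of Reep5 or Reep3 was not tested, and in whole testis a smaller number of cells of a type cannot be told apart from less RNA in each cell.

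**Figure D3:**
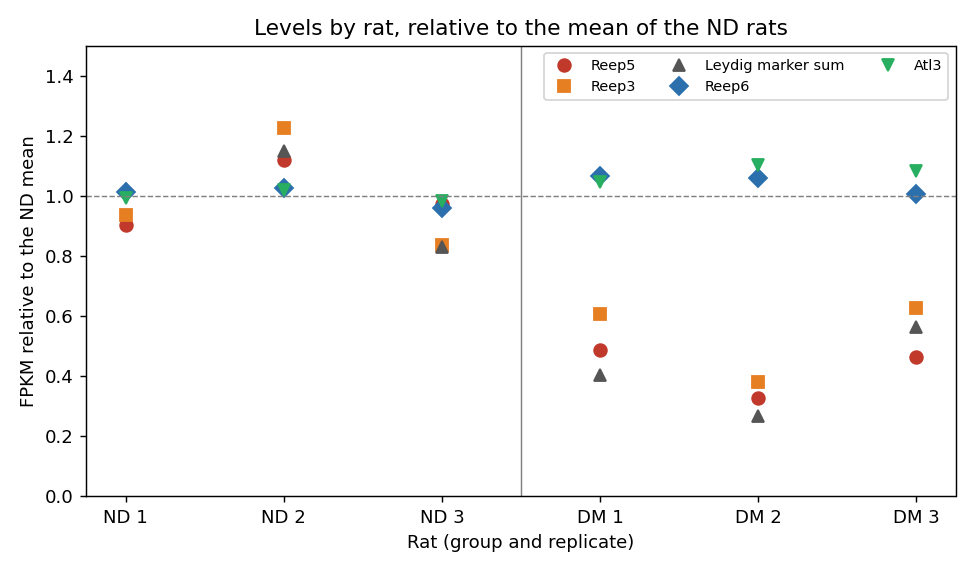
FPKM of Reep5, Reep3, Reep6, Atl3 and the sum of 6 Leydig cell markers in each rat, divided by the mean of the 3 ND rats, with 1 symbol a gene. Reep5, Reep3 and the Leydig marker sum are all lowest in DM replicate 2 and highest in ND replicate 2, while Reep6 and Atl3 stay near 1 in every rat.

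Macrophage markers moved in part, with a summed level of 7.18 to 7.51 FPKM in DM and 8.44 to 10.2 FPKM in ND. The more abundant Adgre1 and Cd163 had overlapping groups, with log2 fold changes of -0.13 and -0.23. Of these 4 markers 2 (Csf1r and Cd68) were lower at an unadjusted p-value below 0.05 from limma, against 7.46% of all genes in either direction. None was at 0 in all rats. Of 5 spermatogonia markers 1, Kit, was lower at that threshold, too few to set apart from the same share. The summed level of these 5 was 13.9 to 19.7 FPKM in DM and 16.4 to 18.9 FPKM in ND. In the other lists, 1 of 3 endothelial, 2 of 4 adipocyte and 2 of 4 neuron markers could be tested, and all markers of the rest. These lists had 0 tested markers past that threshold. Their summed levels in DM and ND were 307 to 325 and 259 to 328 FPKM for Sertoli cells, 57.9 to 62.7 and 59.2 to 76.1 FPKM for peritubular and smooth muscle cells, and 1.11 to 1.25 and 1.24 to 1.59 FPKM for 2 endothelial markers. They were 213 to 247 and 220 to 248 FPKM for spermatocytes, 7869 to 9377 and 7370 to 10051 FPKM for spermatids, 5.26 to 7.09 and 6.23 to 7.48 FPKM for adipocytes and 14.8 to 16.3 and 14.3 to 18.6 FPKM for neurons. The part of these cells in the values of the REEP and atlastin genes was not tested.

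Other genes that shape the ER or reside in it were taken from 6 lists. Of these 52 genes 48 could be tested, and 1 was lower and 0 were higher at an unadjusted p-value below 0.05 from limma, which is 2.08% of them against 7.46% of all genes. The groups did not overlap for 7, or 14.6%, near the share over all genes. The absolute log2 fold change was under 0.2 for 45 of the 48, or 93.8%, against 68.4% of all genes tested, which include many of lower level. Their median was -0.038, beside -0.021 over all genes tested. The 15 tested genes for ER tubules and junctions, among them the reticulon genes Rtn1, Rtn3 and Rtn4, ran from -0.14 to 0.094. Rtn2 was below the filter and was not tested. The most abundant, Arl6ip1, was at 71.6 ± 5.76 FPKM in DM and 71.1 ± 2.99 FPKM in ND (SD, n = 3 each). The 3 ER sheet genes ran from -0.087 to -0.012, led in level by Rrbp1, a ribosome-binding protein gene, at 39.6 ± 2.31 FPKM in DM and 41.9 ± 3.50 FPKM in ND (SD, n = 3 each). The 12 chaperone and translocon genes ran from -0.19 to 0.074, with Hsp90b1, the gene of an ER chaperone, at 235 ± 11.6 FPKM in DM and 241 ± 6.46 FPKM in ND (SD, n = 3 each).

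Of the 10 genes for contact sites between the ER and other membranes, Mospd2 was the single one past the unadjusted threshold. Its protein sits in the ER membrane and tethers it to other organelles. Mospd2 was at 1.09, 1.23 and 1.46 FPKM in DM replicates 1, 2 and 3 and at 2.01, 1.76 and 2.11 FPKM in ND replicates 1, 2 and 3, so the groups were separate. Its log2 fold change was -0.60 (SE 0.18), and limma gave an unadjusted p-value of 0.0122 and an adjusted p-value of 0.522. Bscl2, the seipin gene and the most abundant of this list, was at 141 ± 3.63 FPKM in DM and 137 ± 3.17 FPKM in ND (SD, n = 3 each). Among 7 ER-phagy receptor genes, whose proteins mark ER for degradation, Ccpg1 was the most abundant, at 59.8 ± 6.30 FPKM in DM and 59.0 ± 1.30 FPKM in ND (SD, n = 3 each). Retreg1, in the table under its older symbol Fam134b, was listed at 0 in DM replicates 2 and 3 and in ND replicate 1 and at 5.75 to 7.17 FPKM in the other rats, so its log2 difference of -2.07 (adjusted p = 0.901, limma) rests on values that switch within both groups. The receptor transporter proteins share the receptor-trafficking assay with the REEPs but not their structure. Of these 4 genes Rtp2 was listed at 0 in every rat, Rtp1 and Rtp3 were below 0.5 FPKM, and Rtp4, at 0.428 ± 0.0505 FPKM in DM and 0.708 ± 0.271 FPKM in ND (SD, n = 3 each), differed by -0.57 on the log2 scale (adjusted p = 0.800, limma).

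**Figure D4:**
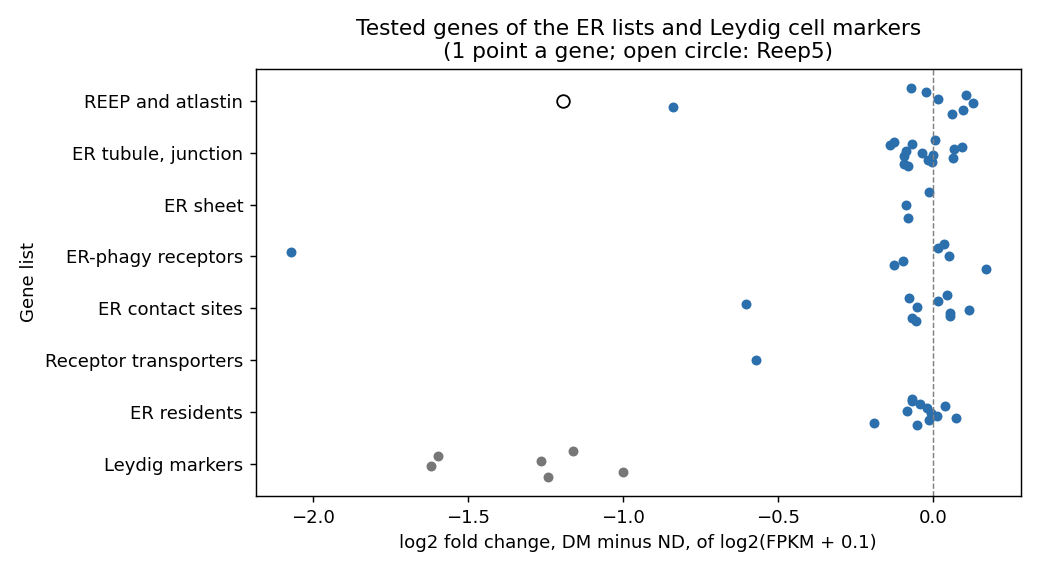
Log2 fold change, DM minus ND, of each tested gene in the REEP and atlastin family, 6 lists of ER genes (blue) and 6 Leydig cell markers (grey), with 1 point a gene and an open circle for Reep5. The Leydig markers lie between -1.62 and -0.999, and 45 of the 48 ER list genes lie within 0.2 of 0, the far left point being Retreg1.

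The genes whose pattern over the 6 rats was most like that of Reep5 were sought among the 7251 protein-coding genes that averaged 5 FPKM or more, by Pearson's r of the log2 values. Of the first 5, 4 are given, namely Acadl, a fatty acid oxidation gene (r = 0.990), Eaf1, a transcription elongation gene (r = 0.988), Ap4b1, an adaptor protein gene (r = 0.986), and Selenop, the selenium carrier gene (r = 0.985). After subtraction of the group means, r was 0.962, 0.912, 0.935 and 0.837 for these genes. Among the members and the ER lists, Reep3 was the most alike, with r = 0.959 and 0.925 after subtraction of the group means. Arl6ip5 and Mospd2 followed with r = 0.845 and 0.840, but only 0.068 and -0.22 without the group means. Among the Leydig cell markers r with Reep5 ran from 0.808 for Hsd17b3 to 0.972 for Cyp17a1, and from 0.334 for Insl3 to 0.790 for Star without the group means. These values describe 6 samples of the same libraries, in which 44 of the 7251 genes had r of at least 0.95.

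Promoter sequences of 8 of the 9 members were found in the RefSeq table (assembly GRCr8), each with 250 bases before and 50 after a start site, and Reep4 had none there. The first 3 shown are those of Reep5 and Reep3, the members that were lower in each DM rat, and of Reep6, the abundant relative that was not. Capitals mark the GC box, GGGCGG on either strand, where neighbouring boxes can overlap. The Reep5 window is chr18:26250611-26250910 on the minus strand, and its start site lies 6845 bases inside the outer end of the gene. The Reep3 window is chr20:21492445-21492744 on the plus strand, and the Reep6 window is chr7:10031222-10031521 on the minus strand.
Reep5: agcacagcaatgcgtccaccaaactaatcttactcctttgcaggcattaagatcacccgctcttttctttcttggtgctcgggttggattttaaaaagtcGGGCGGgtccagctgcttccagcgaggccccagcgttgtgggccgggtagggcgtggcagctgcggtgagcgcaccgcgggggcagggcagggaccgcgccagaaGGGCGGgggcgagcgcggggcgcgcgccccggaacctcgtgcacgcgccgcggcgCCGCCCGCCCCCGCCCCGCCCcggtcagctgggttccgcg
Reep3: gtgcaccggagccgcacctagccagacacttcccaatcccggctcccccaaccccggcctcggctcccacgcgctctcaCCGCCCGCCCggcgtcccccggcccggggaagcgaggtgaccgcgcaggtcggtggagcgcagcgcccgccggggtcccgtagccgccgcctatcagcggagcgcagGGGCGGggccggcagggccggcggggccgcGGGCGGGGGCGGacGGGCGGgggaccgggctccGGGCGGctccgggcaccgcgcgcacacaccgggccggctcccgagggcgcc
Reep6: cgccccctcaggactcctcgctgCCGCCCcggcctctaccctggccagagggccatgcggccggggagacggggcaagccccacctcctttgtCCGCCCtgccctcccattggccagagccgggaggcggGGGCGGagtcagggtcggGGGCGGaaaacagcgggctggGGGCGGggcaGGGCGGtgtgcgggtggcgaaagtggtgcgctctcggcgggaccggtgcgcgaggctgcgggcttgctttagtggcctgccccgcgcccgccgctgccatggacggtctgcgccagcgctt

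All 3 windows are rich in G and C, with 69.3%, 82.0% and 75.3% of their bases and 6, 7 and 6 GC boxes for Reep5, Reep3 and Reep6, beside a median of 51.7% over the 33469 promoters of the table. A GC box was present in 7 of the 8 member promoters and in 33.1% of all promoters. The exception was Atl3 at chr1:214109877-214110176 on the plus strand, in which capitals mark the half-site TGACG of the cyclic AMP response element, on either strand.
Atl3: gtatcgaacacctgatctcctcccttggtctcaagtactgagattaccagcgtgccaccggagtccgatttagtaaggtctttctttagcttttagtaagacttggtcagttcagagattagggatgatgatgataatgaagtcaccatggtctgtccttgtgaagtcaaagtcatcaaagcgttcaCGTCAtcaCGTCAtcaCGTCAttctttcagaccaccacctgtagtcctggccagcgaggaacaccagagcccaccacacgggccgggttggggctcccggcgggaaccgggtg

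The Atl3 window has 3 such half-sites in a row, 51.7% G and C, and no GC box. The half-site was present in 3 of the 8 member promoters, those of the atlastins, and in 21.2% of all promoters. The half-site AGGTCA, which nuclear receptors and the steroidogenic regulator SF-1 bind, was in 0 of the 8 windows and in 16.2% of all promoters, and TATAAA was in 0 of the 8 and in 14.2%. With 8 windows, a count of 0 cannot be set apart from these shares. The abundant Reep6 and the low Reep5 and Reep3 thus shared a GC-rich window. Motifs present in nearly all windows or in none could not separate the members lower in DM from the others. No conclusion on their regulation is therefore drawn from this search.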

How the data were processed

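Testis RNA of 3 DM and 3 ND rats was compared by the groups in the sample labels. The authors compared the reads with rRNA sequences using BWA, aligned them with STAR and assembled with StringTie, and deposited FPKM per gene or locus. Versions, the build and strand use are not given in the sources used here. Their DESeq2 screen needs counts and was not repeated.

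On the scale log2(FPKM + 0.1), limma 3.58.1 (trend, R 4.3.3) was fitted to the 20338 genes averaging 0.5 FPKM or more, two-sided, with Benjamini-Hochberg adjustment. For single genes and sums, scipy 1.17.1 gave exact permutation tests. The steps were first tested on simulated data, in which 200 of 20338 genes were changed. At the study's criterion 95% of these were recovered, and 123 unchanged genes were called as well. That criterion asks for a log2 fold change of 1 or more in size, so the share does not apply to smaller differences. Recovery of differences as small as those of the members other than Reep5 was not tested. Settings varied were the pseudocount (1 or 0.01), the filter (none, or 1 FPKM), TPM or median-ratio scaling (each sample divided by its typical ratio to the others), eBayes without trend or robust, a replicate block, protein-coding genes only, summed symbols, and each rat left out. Members and lists were chosen with earlier results of these data known. All members are given, and from the ER lists the genes at an unadjusted p below 0.05, the most abundant of each list and the 3 most like Reep5. Of the 5 protein-coding genes most like Reep5, 1 is not reported here. Jmjd1c, Retreg1, Rtp1, Rtp2 and Rtp3, and the promoter motifs, were added after their values were seen. Of 106 listed symbols, 105 matched, 4 through older names, and Pecam1 did not.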

Additional observations from a re-analysis of the deposited data

How the results depend on the processing

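All alternatives were tried on every member. Of the 8 members other than Reep5, the number past the criterion was 0 in limma under all 17 alternatives. The number at an unadjusted p-value below 0.05 was 1, was 2 (Reep3 and Atl3) with median-ratio scaling, and ran from 0 to 1 with each rat left out, being 0 without ND replicate 2. With a pseudocount of 1 the log2 fold change was -0.86 for Reep5, which was not tested, and -0.49 for Reep3. For the ER lists the number of genes at an unadjusted p-value below 0.05 from limma was 1, and 2 with median-ratio scaling. This number ran from 1 to 2 with each rat left out, being 2 without DM replicate 3 and without ND replicate 3. The count over all genes past the criterion was 253, against 91 with a pseudocount of 1, 621 with no filter and 85 among protein-coding genes only. The sign of Atl2 turned to 0.0064 with median-ratio scaling, and it ran from -0.091 to 0.032 with each rat left out (0.028 without DM replicate 2), while Reep1 ran from -0.012 to 0.040 (-0.010 without DM replicate 2). Where a value moved, the cause was not tested. Over the 17 alternatives the adjusted p-value of Reep3 from limma ran from 0.239 to 0.891, and its unadjusted p-value was below 0.05 in 16. The groups share replicate numbers from different rats. Same-numbered rats correlated in their deviations at 0.106, 0.0153 and 0.0979, and not every rat matched its own number best. With the replicate block the log2 fold change of Reep3 stayed at -0.84 (adjusted p = 0.591 from limma), the counts over the 8 members were 0 and 1, and the count over all genes was 284. Reep3 and Reep5 ran from 0.644 to 3.98 FPKM over the rats, where few fragments limit precision.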
